A study of Mus musculus with 2 samples.

Results

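Mitochondrial ribosomal protein genes encode the proteins of the ribosome that works inside mitochondria. Members were chosen by name: every gene of the tables whose mouse symbol, matched by Ensembl identifier, begins with Mrpl (large subunit) or Mrps (small subunit) followed by a number and at most 1 letter. The rule found 77 of the 43346 mouse genes listed, 48 named for the large subunit and 29 for the small subunit, all of them protein-coding and nuclear. They lie on 17 chromosomes, with 11 on chromosome 11 and 8 on chromosome 17. The symbols follow history rather than place, since the products of Mrps18a and Mrps30 sit in the large subunit, and that of Mrps36 is now counted with the 2-oxoglutarate dehydrogenase complex. The gene identifier ENSMUSG00000029142.10 had no match by gene identifier but shares a transcript identifier with Mrpl33. Its levels, 329 TPM in pup 3 against 381 TPM in pup 1, are therefore left out of the counts of members.

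The libraries came from the hindbrains of newborn mice of strain B6NCrl at postnatal day 0, 1 from pup 3 (replicate 2) and 1 from pup 1 (replicate 1), with no treatment and no altered allele named. Each library began with 13 pg of RNA from the whole tissue of 1 pup, named as 1 cell-equivalent, extracted by the mirVana method with a size range over 200 nt and made by a Smart-seq protocol, in which complementary DNA is amplified before sequencing. The labels call the assay single cell RNA-seq and give both pups 1 donor record and no sex. The pups form 1 group, so every difference between them has no replicate check and no p-value. The labels do not say how the 13 pg were drawn.

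The mitochondrial ribosome makes only the few proteins encoded by mitochondrial DNA, all of them core subunits of the respiratory chain and ATP synthase. Its 2 ribosomal RNAs come from mitochondrial DNA, while all of its proteins are encoded in the nucleus, made in the cytosol and imported. Some of these proteins have counterparts in bacterial ribosomes, and the rest are found in mitochondria alone, where some of them bind the shortened ribosomal RNA or anchor the ribosome to the inner membrane. The tissue was checked by its markers. All 5 hindbrain markers (Hoxa2, Hoxa5, Hoxb5, Meis1 and Meis2) were detected in both pups, with a summed level of 513 TPM in pup 3 against 482 in pup 1. The forebrain markers Emx1, Six3 and Dlx1 had 0 counts in both pups, and Neurod6 had 49.4 TPM in pup 3 against 18.6 in pup 1.

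Sequencing gave 29866728 expected counts for pup 3 and 35462381 for pup 1, an expected count being an estimate in which reads shared among transcripts are split. The 77 members took 144474 counts in pup 3, which is 0.511% of its nuclear counts (95% Wilson interval 0.508 to 0.513%), and 117609 counts in pup 1, or 0.351% (0.349 to 0.353%). These intervals account for counting alone, because copies of 1 molecule made by amplification were counted apart. The levels below are TPM values, which divide by transcript length, and were rescaled here over the 43309 nuclear genes. On this scale the members summed to 9434 TPM in pup 3 against 7171 in pup 1, a ratio of 1.32. In such a bulk sample, fewer cells of a type and less RNA per cell cannot be told apart.

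Nearly the whole set of ribosomal proteins was found. With 5 or more expected counts taken as detection, 72 of the 77 members were detected in both pups, 45 of 48 for the large subunit and 27 of 29 for the small subunit, against 37.8% of the 21461 protein-coding genes. At like mean level the shares were close, but the mean itself depends on detection in both pups. The range used, 60.4 to 160 TPM, lies between the quartiles of mean level of the 72 and holds 37 of the 77. In it 36 of 37 members were detected in both (97.3%), against 99.1% of 1816 protein-coding genes. Of the 406 that also had the members' middle range of length it was 97.8%. No gene detected in neither pup entered this range, so these shares were bound to be high. They therefore cannot show how far level accounts for the detection of the members. The 72 spanned mean levels of 12.9 to 328 TPM, a 25.4-fold range, and the middle 50 per cent of them lay within 2.65-fold. The same spread was 5.87-fold over the 8931 nuclear genes detected in both pups. The median of the 77 was 108 TPM in pup 3 against 76.8 in pup 1. The subunits stood at like levels, with a median over members of the mean of both pups of 87.0 TPM for the large and 83.2 TPM for the small subunit. The summed level of the large-subunit genes was 6080 TPM in pup 3 against 4526 in pup 1, and that of the small-subunit genes 3354 TPM in pup 3 against 2644 in pup 1.

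**Figure D1:**
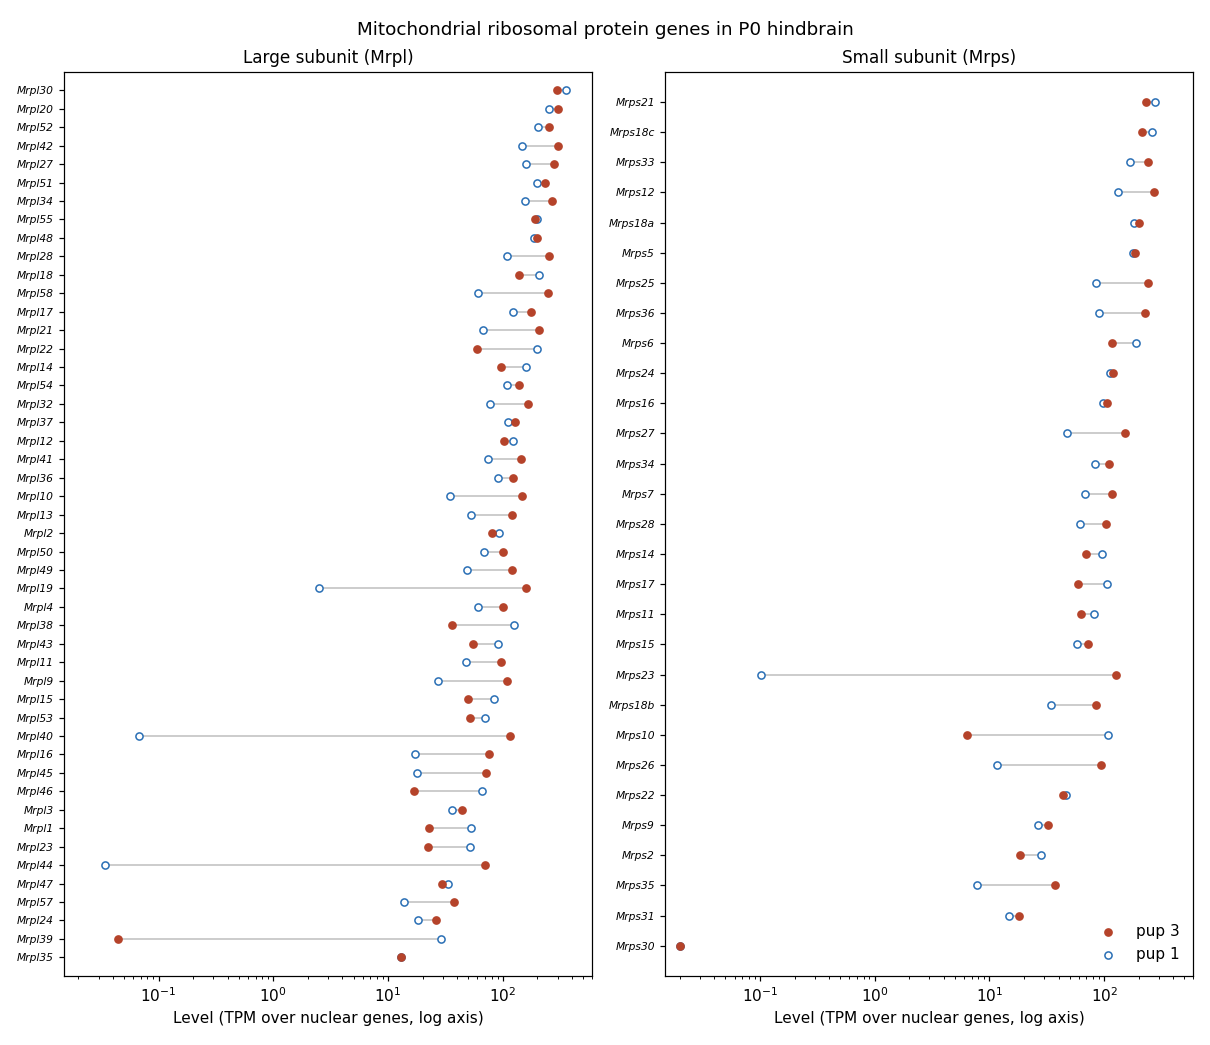
Level of each mitochondrial ribosomal protein gene in pup 3 (filled) and pup 1 (open), in TPM over nuclear genes on a log axis, with the large subunit on the left and the small subunit on the right, ordered by mean. Most pairs lie between 10 and 300 TPM, 5 genes have at least 1 pup near or at the left edge, and Mrps30, at 0 in both pups, is drawn at the edge.

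Among large-subunit genes the highest by mean was Mrpl30, the counterpart of bacterial protein L30, with 299 TPM in pup 3 against 357 in pup 1 (mean 328 ± 41.6, SD, n = 2). Mrpl20, the counterpart of an early-assembling bacterial protein, had 301 TPM in pup 3 against 255 in pup 1. Mrpl52, a protein found in mitochondria alone, had 255 TPM in pup 3 against 203 in pup 1. These 3 genes were among the highest of the subunit in both libraries. Mrpl42, also without a bacterial counterpart, had 301 TPM in pup 3 against 146 in pup 1. Mrpl27 had 281 TPM in pup 3 against 159 in pup 1. Mrpl34 had 269 TPM in pup 3 against 158 in pup 1. All 3 were higher in pup 3, so their place in the order differs between the pups. Mrpl51 had 233 TPM in pup 3 against 198 in pup 1, and Mrpl55, in which the pups lay close together, had 192 TPM in pup 3 against 200 in pup 1 (196 ± 5.88, SD, n = 2).

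By the mean of both pups the highest small-subunit genes were Mrps21 and Mrps18c, counterparts of bacterial S21 and S18. In pup 3 alone Mrps12, Mrps33 and Mrps25 stood above both. Mrps21 had 230 TPM in pup 3 against 275 in pup 1 (253 ± 32.1, SD, n = 2). Mrps18c had 211 TPM in pup 3 against 260 in pup 1 (236 ± 34.6, SD, n = 2). Both were a little lower in pup 3. Mrps33 had 242 TPM in pup 3 against 167 in pup 1. Mrps12, the counterpart of the bacterial S12 that guards the accuracy of decoding, had 270 TPM in pup 3 against 132 in pup 1. Mrps25, a small-subunit protein found in mitochondria alone, had 241 TPM in pup 3 against 84.9 in pup 1. Mrps36 had 227 TPM in pup 3 against 90.5 in pup 1. These 4 were all higher in pup 3, whereas Mrps5, the counterpart of bacterial S5, was close to equal, with 186 TPM in pup 3 against 177 in pup 1.

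A paralogous trio descends from bacterial S18, and in it the levels differed. Mrps18c averaged 236 TPM, Mrps18a 191 ± 12.9 TPM and Mrps18b 59.6 ± 35.3 TPM (SD, n = 2 each). Mrps18a had 200 TPM in pup 3 against 182 in pup 1, and Mrps18b had 84.6 TPM in pup 3 against 34.7 in pup 1. The highest value of Mrps18b thus lay below the lowest value of each of the other 2 paralogs, while those of Mrps18a and Mrps18c differed by less than 2-fold in either pup.

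At the low end of the large subunit stood Mrpl35, with 12.8 TPM in pup 3 against 13.0 in pup 1, Mrpl24 at a mean of 22.3 ± 5.73 TPM, Mrpl57 at 25.7 ± 17 TPM and Mrpl47 at 31.2 ± 2.75 TPM (SD, n = 2 each). At the low end of the small subunit stood Mrps31 at 16.4 ± 2.42 TPM, Mrps35 at 22.3 ± 20.6 TPM, Mrps2 at 23.4 ± 6.78 TPM and Mrps9 at 29.4 ± 4.25 TPM (SD, n = 2 each). Low level did not mean few reads, since Mrpl35 had 849 counts in pup 3 and 971 in pup 1 over an effective length of 3616 nt. Of the 71 neighbouring pairs in the order of the 72 genes, 69 had pup values that overlapped, so the order is fixed between distant genes only.

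Of the 77 members 5 were missing from at least 1 library, and all 5 encode proteins without a bacterial counterpart. Mrpl40 had 2107 counts (116 TPM) in pup 3 and 1 count (0.07 TPM) in pup 1, a ratio of their shares of nuclear counts of 2493 with a 95% counting interval of 447 to 98498. Mrps23 had 2827 counts (126 TPM) in pup 3 and 1 count (0.10 TPM) in pup 1, a ratio of 3344 with an interval of 600 to 132141. Mrpl44, whose product resembles ribonuclease III, had 1678 counts (69.3 TPM) in pup 3 and 1 count (0.03 TPM) in pup 1, a ratio of 1985 with an interval of 356 to 78453. These 3 were plainly present in the library of pup 3 and close to absent from that of pup 1. The intervals cover the counting of reads alone and not molecules lost before amplification. Detection in 1 library only was common, at 1170 protein-coding genes for pup 3 and 2633 for pup 1. Whether the 3 genes were low in the tissue of pup 1 was therefore not tested. Mrpl39, whose product is related to threonyl-tRNA synthetase, had 2 counts (0.04 TPM) in pup 3 and 1259 counts (29.0 TPM) in pup 1, and the ratio of pup 3 over pup 1 was 0.0019 with an interval of 0.00023 to 0.0068. Mrps30 had 0 counts in both pups. For the counting of reads alone this allows up to 0.11 TPM in pup 3 against 0.10 in pup 1 at 3 counts. The bound does not cover molecules lost before amplification. Mrps30 was not detectable in these libraries, which is not the same as absent from the tissue.

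By origin, all 44 members classed as having a bacterial counterpart were detected in both pups, against 24 of 29 classed as without one. Mrpl55, Mrps18a, Mrps18b and Mrps36, all detected in both, were put in neither class, although Mrps18a and Mrps18b belong to the trio from bacterial S18. The shares and medians by origin depend on this classing. The 29 had a median level of 81.1 TPM and the 44 a median of 88.9 TPM. The 3 genes missing from the library of pup 1 were not the low ones of pup 3. Of members between 100 and 300 TPM in pup 3, 2 of 42 were undetected in pup 1 (4.76%, 95% Wilson interval 1.32 to 15.8%), against 1.02% of the 1370 protein-coding genes in that range. Between 30 and 100 TPM it was 1 of 22 members, against 9.80% of 3052 protein-coding genes, and between 10 and 30 TPM none of 8 members (interval up to 32.4%), against 17.1% of 2228. In the other direction, Mrpl39 was the 1 of 11 members between 10 and 30 TPM in pup 1 that was undetected in pup 3 (9.09%, interval 1.62 to 37.7%), against 30.6% of 3047 protein-coding genes, and 0 of 32 members between 30 and 100 TPM in pup 1 were undetected in pup 3 (interval up to 10.7%), against 13.3% of 2934 protein-coding genes.

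**Figure D2:**
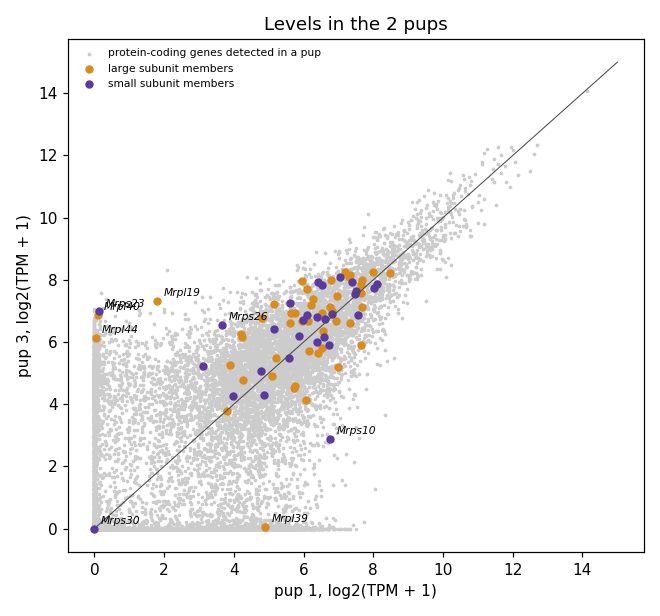
Levels in pup 3 (vertical) against pup 1 (horizontal) as log2(TPM + 1), for protein-coding genes detected in a pup (grey) and for the 77 members by subunit, with the line of equal level. Mrps23, Mrpl40 and Mrpl44 lie on the left edge, Mrpl39 on the lower edge and Mrps30 at the corner, and most other members lie near the line.

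The pups differed in many single members, mostly by less than 2-fold. Of the 72 detected in both, 46 differed by less than 2-fold, 19 by 2-fold to 4-fold and 7 by 4-fold or more, after 1 TPM was added to each value. The shares of all genes detected in both that fell in these classes were not computed. The median size of the difference was 1.64-fold, against 1.87-fold over all nuclear genes detected in both pups. In the middle range of level it was 1.66-fold over 36 members and 1.71-fold over 1800 protein-coding genes. Over the 397 of these matched on length as well it was 1.80-fold. Across the 72 genes the log2 levels of the pups had a Pearson r of 0.51 and a Spearman rho of 0.60, a description over genes that share their libraries and are not independent. Mrpl35, with a log2 ratio of -0.01, Mrpl55 with -0.06, Mrps5 and Mrpl48 with 0.07 each, Mrps22 with -0.08 and Mrps24 with 0.10 were closest to equal.

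Over the 72 members the median log2 ratio (pup 3 over pup 1) was 0.30 (95% interval of the median over genes 0.10 to 0.54), and it was 0.37 over the 45 of the large subunit and 0.28 over the 27 of the small subunit. It was 0.12 over all 8931 nuclear genes detected in both, and 0.24 over 397 protein-coding genes of the members' middle range of level and effective length. Of the 72, 47 were higher in pup 3 and 25 lower (65.3% higher), against 54.0% higher over all genes and 57.7% over the 397 matched genes. The median was 0.18 over the 44 members with a bacterial counterpart and 0.48 over the 24 detected ones without. Relative to the median of all genes, the members lay 0.18 higher. With counts scaled to the library total without length they lay 0.27 higher, and with TMM factors on those counts, which moved the median of all genes by -0.10 from its value on TPM, 0.25 higher. The interval describes the spread over genes and holds no error between animals.

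At least 4-fold differences were counted among the 76 members with 50 counts in a pup. Of these, 9 were higher in pup 3 (11.8%), against a background of 16.7% of 12300 nuclear genes, and 2 were lower (2.63%), against 24.0%. In either direction it was 11 of 76 members, against 40.7% of all such genes. At like level the gap was smaller: of the 37 members of the middle range of level, 4 were higher (10.8%) and 0 lower, against 7.60% higher and 5.23% lower of 1816 protein-coding genes of that range, and 12.8% higher and 5.91% lower of the 406 matched on length as well. Within that range the members' share was thus near that of like genes. The range takes in 37 of the 76 members, and a mean falls where 1 pup is near 0. Most of the 11 lie outside it, so the comparison does not cover them. Mrpl40, Mrps23, Mrpl44 and Mrpl39 above are 4 of the 11. Mrpl19, the counterpart of a bacterial protein at the bridge between subunits, had 160 TPM in pup 3 against 2.48 in pup 1, a log2 ratio of 5.53. Its counts were 3479 in pup 3 and 253 in pup 1, a smaller gap of 16.3-fold in shares of nuclear counts (95% counting interval 14.3 to 18.6). The effective length of the gene was 1192 nt in pup 3 and 4901 nt in pup 1, because the transcripts given the reads differed.

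Mrps10, a protein of the head of the small subunit, had 6.40 TPM in pup 3 (108 counts) and 108 TPM in pup 1 (2241 counts), a log2 ratio of -3.88. Mrps26, which has no bacterial counterpart, had 93.2 TPM in pup 3 (1632 counts) and 11.7 TPM in pup 1 (237 counts), a log2 ratio of 2.89. On the scale of TPM + 1, these 2 and Mrpl19 had the largest differences among members detected in both pups. Mrpl10, which carries the stalk that recruits translation factors, had 147 TPM in pup 3 against 34.5 in pup 1, a log2 ratio of 2.06. Mrpl12, the protein of that stalk, was near equal, with 102 TPM in pup 3 against 122 in pup 1. Mrpl16 had 75.5 TPM in pup 3 against 17.3 in pup 1, a log2 ratio of 2.06. Mrpl58, a peptidyl-tRNA hydrolase that frees stalled ribosomes and became a part of the large subunit, had 249 TPM in pup 3 against 60.9 in pup 1, a log2 ratio of 2.02, and its counts of 2396 in pup 3 and 502 in pup 1 gave a wider 5.65-fold in shares of nuclear counts (interval 5.13 to 6.23). Mrps35 had 36.9 TPM in pup 3 against 7.73 in pup 1, a log2 ratio of 2.12, and its counts of 510 in pup 3 and 214 in pup 1 gave 2.82-fold. On TPM + 1, Mrpl10, Mrpl16, Mrpl58 and Mrps35 passed 4-fold narrowly, and each fell short under at least 1 other scaling.

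Other members below that fold moved either way. Mrpl21 had 206 TPM in pup 3 against 67.2 in pup 1. Mrps27, an RNA-binding protein of the pentatricopeptide repeat family, had 151 TPM in pup 3 against 47.5 in pup 1. Mrpl45, which ties the human ribosome to the inner membrane, had 71.0 TPM in pup 3 against 18 in pup 1. These 3 were higher in pup 3, while 3 others were lower there. Mrpl22 had 59.4 TPM in pup 3 against 198 in pup 1. Mrpl38 had 36.0 TPM in pup 3 against 126 in pup 1. Mrpl46 had 16.7 TPM in pup 3 against 66.3 in pup 1. The 6 genes of this paragraph were chosen after their values were seen.

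The proteins of the mitochondrial ribosome that carry other symbols were all detected in both pups. Chchd1 had 115 TPM in pup 3 against 146 in pup 1. Aurkaip1 had 141 TPM in pup 3 against 69.3 in pup 1. Dap3, a GTP-binding protein of the small subunit, had 61.8 TPM in pup 3 against 110 in pup 1. The first 3 thus lay in the middle range of the members. Gadd45gip1, at the exit of the large subunit's tunnel, had 24.6 TPM in pup 3 against 11.5 in pup 1. Ptcd3, a pentatricopeptide repeat protein where messenger RNA enters, had 6.01 TPM in pup 3 against 26.7 in pup 1. Of the 5, 2 were higher in pup 3 and 3 lower, with a median log2 ratio of -0.34 that took the other sign (0.08) when counts were scaled to the library total without length (CPM).

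The genes that serve the ribosome were found less fully than its proteins. Of 73 listed genes for assembly, translation, tRNA charging and mitochondrial DNA, 33 were detected in both pups (45.2%, against the 37.8% of all protein-coding genes), 30 in 1 pup only and 10 in neither, with a median level of 17.9 TPM. Of the 26 assembly and RNA modification factors 14 were detected in both, led by Malsu1, which keeps the subunits from joining early, with 156 TPM in pup 3 against 51.3 in pup 1. Eral1, a chaperone of the small ribosomal RNA, followed with 108 TPM in pup 3 against 85.9 in pup 1. Of the 15 translation and messenger-binding factors 8 were detected in both, led by Slirp with 185 TPM in pup 3 against 212 in pup 1, and by the elongation factor Tufm with 115 TPM in pup 3 against 85.7 in pup 1. The release factor Mtrf1 was detected in pup 3 alone, with 1523 counts in pup 3 and 0 in pup 1. The recycling factors Gfm2 (0 counts in pup 3 and 3594 in pup 1) and Mrrf (0 in pup 3 and 1369 in pup 1), the release factor Mtrf1l (0 in pup 3 and 296 in pup 1) and Lrpprc, the partner of Slirp (2 in pup 3 and 1477 in pup 1), were detected in pup 1 alone.

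Of 20 mitochondrial aminoacyl-tRNA synthetases and amidotransferase subunits 7 were detected in both pups, 5 in pup 3 alone and 6 in pup 1 alone. Lars2, for leucine, had 208 TPM in pup 3 against 205 in pup 1, and Rars2, for arginine, had 7.85 TPM in pup 3 against 135 in pup 1. Of 12 genes for mitochondrial transcription and DNA upkeep 4 were detected in both. The highest by mean was Ssbp1, a single-strand DNA binding protein, which was the lowest of the 4 in pup 3, with 16.9 TPM in pup 3 against 169 in pup 1. The elongation factor Tefm had 58.8 TPM in pup 3 against 38.3 in pup 1. Mterf1a had 835 counts in pup 3 and 0 in pup 1. Tfam, which packs mitochondrial DNA, had 0 counts in pup 3 and 757 in pup 1. Polrmt, the RNA polymerase, had 1 count in pup 3 and 465 in pup 1. Mterf2 (0 in pup 3 and 765 in pup 1), the nuclease Mgme1 (0 in pup 3 and 855 in pup 1) and Top1mt (0 in pup 3 and 839 in pup 1) were detected in pup 1 alone as well. These lists had lower levels than the ribosomal proteins, and how far level and how far the small input set their detection was not tested.

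**Figure D3:**
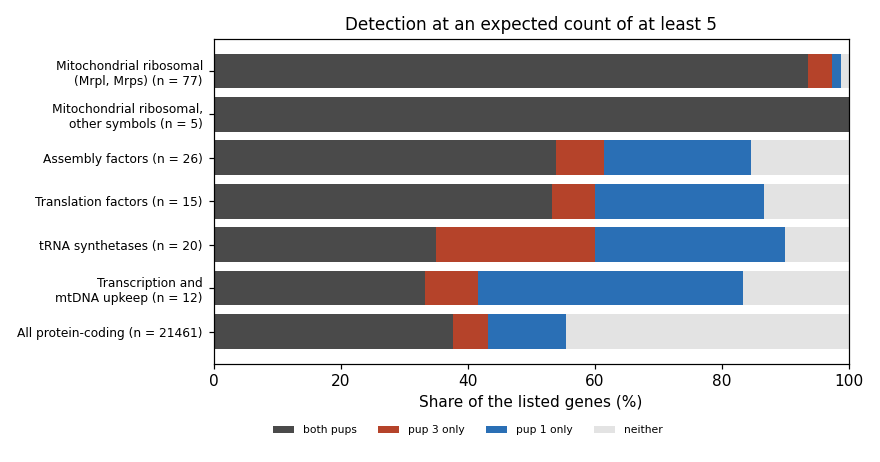
Share of the genes of each list detected, with 5 or more expected counts, in both pups, in pup 3 only, in pup 1 only or in neither. The ribosomal protein genes, at 72 of 77 and 5 of 5, have the largest shares in both pups, and the 4 lists of partner genes range from 4 of 12 to 14 of 26.

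The members were set beside the gene sets that share their products' work. The 37 nuclear subunits of respiratory complex I, which take in mitochondrially made partners, were all detected in both pups, with a median level of 397 TPM and a median log2 ratio of 0.27 (24 higher in pup 3 and 13 lower). The cytosolic ribosomal protein genes, of which 80 of 83 were detected in both, had a median level of 597 TPM and a median log2 ratio of -0.68 (8 higher in pup 3 and 72 lower). The members' ratios thus leaned to pup 3, as those of complex I did, while those of the cytosolic ribosome leaned to pup 1, in the same 2 libraries. Protein-coding genes of the members' middle range of level and effective length leaned to pup 3 too, with a median of 0.24 (57.7% higher). The members' lean was thus near that of such genes, and complex I was not matched in this way. The ribosomal RNAs of mitochondria, on the deposited TPM scale, stood at 1196 TPM in pup 3 against 1618 in pup 1 for mt-Rnr1 and at 4731 TPM in pup 3 against 5796 in pup 1 for mt-Rnr2, both lower in pup 3. The 13 mitochondrial protein genes had a median log2 ratio of -0.09, with 5 higher in pup 3 and 8 lower.

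**Figure D4:**
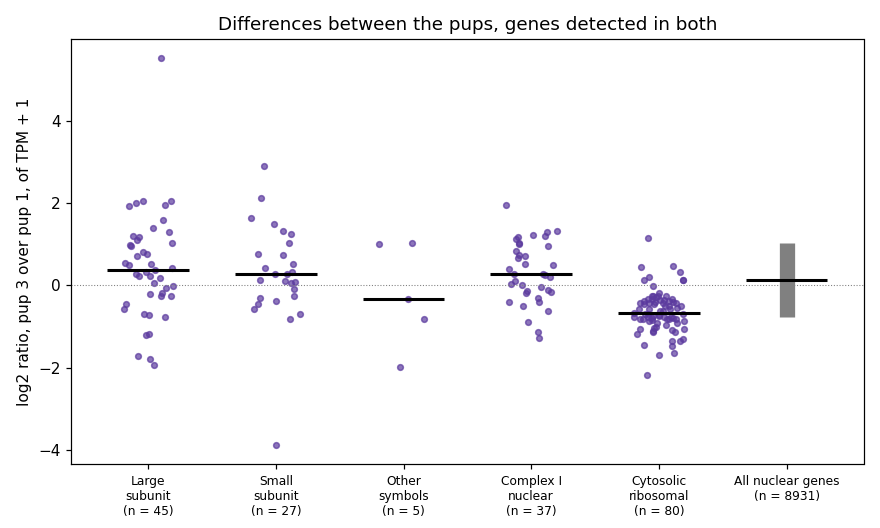
The log2 ratio of pup 3 over pup 1 of TPM + 1 for genes detected in both pups, 1 point a gene with black lines at the medians, and for all 8931 nuclear genes the median with the middle 50 per cent as a bar. Medians are 0.37 and 0.28 for the subunits, -0.34 for the 5 ribosomal proteins with other symbols, 0.27 for complex I, -0.68 for cytosolic ribosomal proteins and 0.12 for all genes.

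Cell markers also differed between the libraries. The 5 erythroid markers summed to 3941 TPM in pup 3 against 1486 in pup 1, with Alas2 at 0 counts in pup 3 and 909 in pup 1. The 5 neuronal markers, all detected in both, summed to 6307 TPM in pup 3 against 8686 in pup 1, the sum being lower in pup 3 through Tubb3 and Stmn2, while Map2, Snap25 and Gap43 were higher there. The 4 of radial glia and astrocytes summed to 7286 TPM in pup 3 against 7745 in pup 1. The 4 choroid plexus markers, of which Kl was at 0 in both pups, summed to 3520 TPM in pup 3 against 3101 in pup 1, nearly all of it Ttr. Otx2 had 2817 counts in pup 3 and 5 in pup 1. Folr1 had 54.5 TPM in pup 3 against 73.2 in pup 1. The 4 muscle markers, of which Myh3 was at 0 in both, summed to 44.9 TPM in pup 3 against 26.9 in pup 1, led by Acta1, while Tnnt3 had 0 counts in pup 3 against 214 in pup 1, and Ckm 4 in pup 3 and 37 in pup 1. Their part in the members' ratios was not tested.

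Many of the members share a start region with another gene. In the annotation, 33 of 77 (42.9%) had a protein-coding gene on the opposite strand starting within 1000 nt of their own start, against 2348 of 21461 protein-coding genes (10.9%). Only 37.8% of the 21461 were detected in both pups, and the share among those was not computed. Of the 33 nearest such partners, 17 were detected in both pups, 8 in 1 pup and 8 in neither. Mrpl46 and Mrps11 are each other's partner, with starts 412 nt apart in that annotation. These starts differ from the RefSeq starts used for the promoters below. Mrps11 had 62.4 TPM in pup 3 against 81.8 in pup 1, and both genes of the pair were lower in pup 3. Mrpl36 starts 29 nt from Ndufs6, a complex I subunit with 717 TPM in pup 3 against 283 in pup 1, beside 122 TPM in pup 3 against 91.3 in pup 1 for Mrpl36. Mrpl47 starts 615 nt from Ndufb5, another complex I subunit, at 379 TPM in pup 3 against 369 in pup 1. The exons of Mrpl46 and Mrps11 overlap on opposite strands, as do those of Mrpl36 and Ndufs6 and of Mrpl47 and Ndufb5. Whether counting used strand is not known, so the genes of these pairs may share reads.

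Others face genes of translation. Mrpl49 starts 59 nt from Fau, which encodes a cytosolic ribosomal protein, and the pair differed in opposite directions: Mrpl49 had 120 TPM in pup 3 against 48.5 in pup 1, while Fau had 398 TPM in pup 3 against 634 in pup 1. Mrps12 starts 172 nt from Sars2, the mitochondrial seryl-tRNA synthetase, which had 82 counts in pup 3 and 2 in pup 1. Mrps27 starts 81 nt from Ptcd2, with 1322 counts in pup 3 and 3 in pup 1. Among the members missing from pup 1, Mrpl40 starts 175 nt from Hira, a histone chaperone gene with 1247 counts in pup 3 and 12 in pup 1. Mrpl44 starts 125 nt from Wdfy1, which had 5933 counts (73.7 TPM) in pup 3 and 3511 counts (85.0 TPM) in pup 1. Exons of Mrpl44 and Wdfy1 overlap on opposite strands as well, so they may share reads. Hira was thus lower in pup 1 as Mrpl40 was, while Wdfy1 was well detected in both pups and its order differed between counts and TPM. These pairs were chosen after their values were seen.

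Promoters were read from RefSeq on GRCm38.p6, from 250 bases before to 50 after the start, and 68 of the 77 members matched by symbol. Exact letters were searched on both strands for motifs known in genes of mitochondrial function. The ETS motif CCGGAAG stood in the promoters of 25 of the 68 members (36.8%), against 12.9% of 17491 protein-coding genes with a promoter and 21.6% of the 6417 of those detected in both pups. The YY1 motif AAGATGGCG stood in 8 members (11.8%), against 2.14% of all and 4.18% of detected genes. The NRF1 motif, a palindrome spelled by the capitals of the Mrpl39 promoter below, stood in 3 members (4.41%: Mrpl9, Mrpl32 and Mrpl39), against 1.47% of all and 2.56% of detected genes. The Sp1 motif GGGCGG was found in 34 of the 68, near the 49.2% of all genes and under the 71.4% of detected ones, and the TATA box TATAAA in 5 (7.35%), against 14.8% and 8.45%. A match is a string of letters, not a site shown to be bound, and these shares are descriptions.

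The 8 YY1 matches are shown with their positions. In 6 of the 8, the match read along the gene's strand and began 11 to 36 bases after the start base, while in Mrpl36 and Mrps11 it lay before the start and on the other strand. Over all protein-coding genes, 374 promoters held the letters on either strand and 281 held them on the gene's strand. The preference for that strand is thus not particular to the members. The distance from the start was not computed for all genes. The windows give the motif in capitals with up to 10 bases on each side, read 5′ to 3′ along the strand that holds it, on GRCm38.p6.
Mrpl35 (chr6:71823743-71823771, gene on the minus strand): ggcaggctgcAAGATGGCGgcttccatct
Mrpl36 (chr13:73330968-73330996, gene on the plus strand): gccaggaagaAAGATGGCGtaaggtcacg
Mrpl37 (chr4:107066822-107066850, gene on the minus strand): tgcacgggcaAAGATGGCGgcgtccaggt
Mrpl42 (chr10:95501904-95501932, gene on the minus strand): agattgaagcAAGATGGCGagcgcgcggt
Mrps11 (chr7:78783013-78783041, gene on the plus strand): ggaagacagaAAGATGGCGgcgcccgtag
Mrps18a (chr17:46111005-46111033, gene on the plus strand): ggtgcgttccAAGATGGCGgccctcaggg
Mrps24 (chr11:5707652-5707675, gene on the minus strand): gcgccggcccAAGATGGCGtggtc
Mrps27 (chr13:99344790-99344818, gene on the plus strand): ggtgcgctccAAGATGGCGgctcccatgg
The levels of these 8 genes ran from 12.9 TPM for Mrpl35 to 223 TPM for Mrpl42, with a median of 111 TPM, against 91.8 TPM for the 55 detected members with a promoter and no match. The 24 detected members with the ETS letters had a median of 153 TPM, against 85.1 TPM for the 39 without, and their median log2 ratios were 0.31 with and 0.24 without.

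Mrps18a and Mrps27 held both the ETS and the YY1 letters. Their whole promoters are shown on the plus strand of GRCm38.p6, with both motifs in capitals. In Mrps18a the ETS letters began 26 bases before the start, and in Mrps27, on the other strand, 48 bases before it, and in neither gene did the matches overlap.
Mrps18a (chr17:46110754-46111053, plus strand): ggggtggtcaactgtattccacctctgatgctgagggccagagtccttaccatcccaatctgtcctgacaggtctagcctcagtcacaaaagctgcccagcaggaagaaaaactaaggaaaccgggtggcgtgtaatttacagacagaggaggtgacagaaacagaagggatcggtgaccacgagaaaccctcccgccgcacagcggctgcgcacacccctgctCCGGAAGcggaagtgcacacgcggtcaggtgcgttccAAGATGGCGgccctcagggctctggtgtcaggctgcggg
Mrps27 (chr13:99344536-99344835, plus strand): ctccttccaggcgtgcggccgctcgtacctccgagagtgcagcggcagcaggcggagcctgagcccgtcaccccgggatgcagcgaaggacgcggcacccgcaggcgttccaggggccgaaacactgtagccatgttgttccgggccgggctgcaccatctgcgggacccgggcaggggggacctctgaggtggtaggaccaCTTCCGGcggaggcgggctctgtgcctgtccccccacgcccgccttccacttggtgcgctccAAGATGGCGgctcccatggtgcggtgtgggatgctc
The promoters of Mrps11, the partner of Mrpl46, and of Mrpl39, the gene missing from pup 3, are shown for contrast. The Mrps11 window overlaps the promoter window of Mrpl46 and held the YY1 letters, in capitals, on the other strand. That is the strand of Mrpl46, and the letters lie just past the downstream end of the Mrpl46 window. The Mrpl39 window held the NRF1 letters, 125 bases before the start.
Mrps11 (chr7:78782881-78783180, plus strand): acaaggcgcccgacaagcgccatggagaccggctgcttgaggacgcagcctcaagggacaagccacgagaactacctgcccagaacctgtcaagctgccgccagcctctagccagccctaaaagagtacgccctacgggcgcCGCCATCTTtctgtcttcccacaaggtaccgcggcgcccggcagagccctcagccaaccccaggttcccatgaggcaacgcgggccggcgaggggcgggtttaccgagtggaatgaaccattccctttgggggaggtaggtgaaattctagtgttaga
Mrpl39 (chr16:84735195-84735494, minus strand): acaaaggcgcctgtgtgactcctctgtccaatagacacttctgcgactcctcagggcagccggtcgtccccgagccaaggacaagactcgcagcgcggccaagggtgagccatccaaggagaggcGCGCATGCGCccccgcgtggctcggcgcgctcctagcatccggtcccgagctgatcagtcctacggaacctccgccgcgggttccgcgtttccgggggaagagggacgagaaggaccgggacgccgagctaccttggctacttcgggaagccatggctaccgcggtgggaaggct

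**Figure D5:**
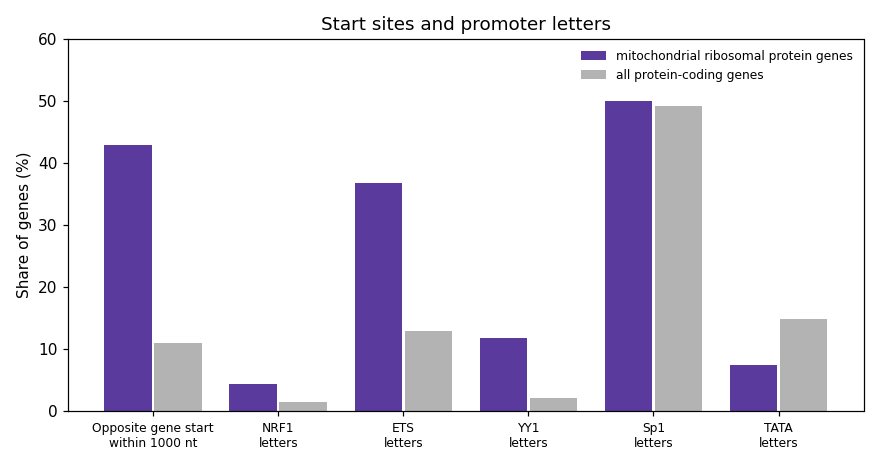
Share of mitochondrial ribosomal protein genes and of all protein-coding genes with an opposite-strand gene start within 1000 nt (77 members) and with each exact motif in the promoter on either strand (68 members with a RefSeq promoter). The members have the larger share for opposite starts, ETS, YY1 and NRF1, about the same share for Sp1 and the smaller share for TATA. The shares of all protein-coding genes are not limited to genes detected in these libraries.

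Reads of some members could have been split with other genes. Exons of 32 members overlap an exon of another gene, 28 on the opposite strand and 7 on the same strand, and since no source used here says whether counting used strand, reads of such pairs cannot be told apart. Processed pseudogenes with at least 95% identity over 200 nt or more were found for 19 members, of which 8 had a detected copy. Of the 24 copies only 17 were listed with counts. The others, among them the copies of Mrps10 and Mrps26, could not be judged. Mrpl23 is uncertain by itself, because its copy Mrpl23-ps1, identical over 540 nt, took 3096 counts in pup 3 and 1489 in pup 1, against 237 in pup 3 and 489 in pup 1 for Mrpl23. Gm5776, the copy of Mrps33, took 132 counts in pup 3 and 116 in pup 1, small beside the 2798 in pup 3 and 1852 in pup 1 of Mrps33.

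The leading transcript was mostly the same in both pups. Of the 72 members detected in both pups 18 have 1 transcript in the tables, and of the 54 with several, 41 had the same leading transcript in both. Over all 72, the leading transcript took a median of 98.6% of the gene's TPM in pup 3 and 95.5% in pup 1. These medians include the 18 genes whose only transcript takes all of it. Transcript types were read from GENCODE M21, which is later than the M4 of the counts and may differ from it. By these types, 42 of the 72 had over 90% of their TPM on protein-coding transcripts in both pups. In 17 that share was under 50% in at least 1 pup, as in Mrps26 (0.02% in pup 3 and 0.67% in pup 1). Among the 13 whose leader differed, Mrpl19 led with a transcript of 419 nt in pup 3, at 52.6% of the gene's TPM, and with 1 of 5000 nt in pup 1, which took all of it. Mrpl47 led with a transcript of 3364 nt in pup 3, which took all of the gene's TPM, and with 1 of 523 nt in pup 1, at 54.2%. Since TPM divides by length, these 2 genes' ratios depended on which transcript was given the reads: Mrpl47 was near equal in TPM, at 29.3 in pup 3 and 33.2 in pup 1, though its counts were 1747 in pup 3 and 1186 in pup 1.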

How the data were processed

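Total RNA from the hindbrains of 2 newborn mouse pups was measured in 1 library each. The authors deposited a gene table and a transcript table per library, made on mm10 with annotation M4, per the deposited notes. Per the file headers, they hold expected counts (estimated counts that split shared reads), deposited TPM and deposited FPKM per gene, and, for transcripts, the deposited percent of the gene's TPM. The layout is that of RSEM. For the aligner, the versions and the strand setting: not given in the sources used here. Such estimates make near-identical copies uncertain one by one.

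Of 43346 mouse gene identifiers 42462 (98.0%) matched GENCODE M21 on GRCm38, the same assembly, which gave symbols and 1-based coordinates. Promoters came from RefSeq on GRCm38.p6. TPM was rescaled over 43309 nuclear genes. Detection meant 5 or more expected counts. Ratios are log2 of pup 3 over pup 1 after adding 1 TPM, which understates differences of low genes, and 4-fold differences were counted at 50 counts in a pup. Ratios with 1 to 3 counts carry exact 95% counting intervals, and 0 counts allow up to 3, both for the counting of reads alone. Depth was 29866728 counts in pup 3 and 35462381 in pup 1. Spike-ins took 2.18% in pup 3 and 2.31% in pup 1, and mitochondrial genes 3.11% in pup 3 and 3.33% in pup 1.

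With 1 group no test was made. Expected counts were rounded for edgeR 4.0.16 and DESeq2 1.42.0, used for scaling factors only. Copies were found with BLAST 2.17.0, and the tables made with pandas 2.3.3 and SciPy 1.17.1. Tested on simulated data for the ratio of pup 3 over pup 1 (41113 genes), the 4-fold count called 50 of 50 genes raised 8-fold, 49 of 50 lowered 8-fold, none changed 2-fold and 0 of 11716 left alone. The simulated counts varied by counting alone, with no loss of molecules at small input and no amplification. They therefore do not measure how often unchanged genes pass 4-fold in these libraries. Alternatives varied the detection minimum, scaling, pseudocount, fold, count minimum, library, membership and motif strand. Adding Mrpl33, and leaving out members with overlaps or copies, were chosen after seeing the data. The members, partner lists, origin classes and motifs were chosen with earlier results of these data known. Genes were named if missing from a pup, past 4-fold, among the 8 highest or 4 lowest of a subunit, in the ribosome under another symbol, or, in partner lists, among the 2 highest or, where at most 6, found in 1 pup only. Other named genes were chosen after their values were seen. A listed gene is not reported here.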

Additional observations from a re-analysis of the deposited data

How the results depend on the processing

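No paired analysis was possible because the pups form 1 group. Of 178 alternative values of the summary results, 165 kept their direction and stayed within the limits set for a move, 12 moved and 1 changed sign. FPKM, a smaller scale in these libraries, gave medians of 51.9 over all members, 52.2 for the large and 50.04 for the small subunit, and sums of 3182 for the large and 1798 for the small subunit. With 1 pup at a time, the median ranged from 76.8 to 108 TPM over all members, from 71.8 to 112 TPM for the large and from 82.4 to 105.7 TPM for the small subunit, the sums from 4526 to 6080 TPM for the large and from 2644 to 3354 TPM for the small subunit, and the members detected from 73 to 75 in all, from 46 to 47 for the large and from 27 to 28 for the small subunit. A fold of 2 gave 23 of 76 members higher in pup 3 and 7 lower, against 27.9% and 34.7% of all genes tested, and a fold of 8 gave 4 higher and 2 lower, against 11% and 17.2%. The median log2 ratio of the ribosomal proteins with other symbols reversed to 0.081 on CPM. DESeq2 scaling moved that of cytosolic ribosomal proteins to -0.78. On the forward strand alone 14 members (20.6%) held the ETS letters, against 7.11% of all and 12.1% of detected genes, and 17 (25%) the Sp1 letters, against 33.6% and 49.65%, a smaller share in place of a like one. The median of all genes was 0.12 as reported, 0.02 under TMM and -0.01 under DESeq2 factors, and the members' median stayed above it, at 0.27 under TMM and 0.24 under DESeq2. Among single members, Mrpl10 (1.98 and 1.96) and Mrpl16 (1.96 and 1.93) fell short of 4-fold under TMM and DESeq2, Mrpl58 (1.97) under protein-coding scaling, and Mrps35 under CPM, TMM and DESeq2 (1.36, 1.24 and 1.21), while Mrpl45 (2.07) and Mrpl9 (2.01) passed it on CPM. The log2 ratios of 6 members (Mrpl17, Mrpl35, Mrpl47, Mrpl48, Mrpl55 and Mrps5) changed sign under some scaling. Adding Mrpl33 gave a median log2 ratio of 0.29, and leaving out members with overlaps or copies gave 0.30. The cause of these moves was not tested. Counting limits the ratios of low genes, and with 1 library a pup the small input cannot be told apart from the animal.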
